A study of Mus musculus with 4 samples.

Results

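The genes described here encode the protein complexes of oxidative phosphorylation, the machinery in the inner mitochondrial membrane that oxidises NADH and succinate and makes ATP. Members were taken by gene symbol: probe sets whose mouse symbol names a subunit, assembly factor or close paralog of complex I (Ndufa, Ndufb, Ndufc, Ndufs, Ndufv), complex II (Sdha to Sdhd), complex III (Uqcr genes and Cyc1), complex IV (Cox4 to Cox8 genes) or complex V (Atp5 genes), and Cycs. This gave 88 of 18781 named genes. Of these, 77 were structural subunits or their tissue isoforms (34 of complex I, 4 of complex II, 8 of complex III, 17 of complex IV and 14 of complex V). The other 11 were 7 assembly factors of complex I, Cycs, the paralogs Ndufa4l2 and Cox7a2l, and Ndufa11b, which RefSeq lists as a transcribed pseudogene.

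Heart RNA was compared between Mef2a+/+ and Mef2a-/- mice of both sexes, 2 months old, separately for dissected atria and dissected ventricles. Mef2a encodes MEF2A, a transcription factor active in heart and skeletal muscle. The sources used here do not give the strain or which part of the gene was deleted. The RNA of 7 mice was combined for each of the 4 groups and read on 1 array per group. With no replicate array there was no spread between replicates to judge a difference by, and no test was possible. All values are log2 intensities as deposited, and all ratios are differences of log2 values.

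Complex I takes electrons from NADH and complex II from succinate. Both pass them through ubiquinone to complex III, from which cytochrome c carries them to complex IV, where oxygen is reduced. Complexes I, III and IV pump protons, and complex V, the ATP synthase, uses the gradient to make ATP. The heart depends on this pathway more than most tissues, and several complex IV subunits come in a widely expressed form and a heart and skeletal muscle form. Subunits encoded by mitochondrial DNA were not analysed here.

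The array medians over all probe sets lay between 5.66 and 5.75, and the interquartile range was 2.97 on the knockout-labelled atria array against 3.18 to 3.21 on the other arrays. Mef2a itself stood at 10.32 (wild type) and 10.41 (knockout-labelled) in atria and at 10.28 and 10.34 in ventricles. It was thus not lower in the knockout-labelled pools, and its probes, which may lie outside the deleted part, do not check the labels. Chamber labels matched their markers. The 5 atrial markers fixed for this purpose averaged 12.06 on both atrial arrays against 7.52 and 7.18 on the wild type and knockout-labelled ventricular arrays. The 4 ventricular markers averaged 8.16 and 8.08 in atria against 10.30 and 10.62. All 6 cardiomyocyte markers were bright on every array, with list means of 11.91 to 12.07.

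Members were bright as a group. Their median was 10.12 in wild type atria and 10.21 in knockout-labelled atria, and 10.55 in the ventricles of either genotype. The median over every value deposited, 5.71, served as a floor, and a gene entered a comparison when the brighter array of the pair reached it. Of the 88 members 85 reached the floor on at least 1 array. Cox6b2 (4.48 to 4.93), Cox7b2 (2.53 to 2.76) and Cox8c (4.69 to 5.01), isoforms known mainly from testis, stayed below it on all 4 arrays. Ndufaf6, a complex I assembly factor, was below it on both atrial arrays (5.69 and 5.22) and was left out of the atrial genotype comparison, which then held 84 members.

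**Figure D1:**
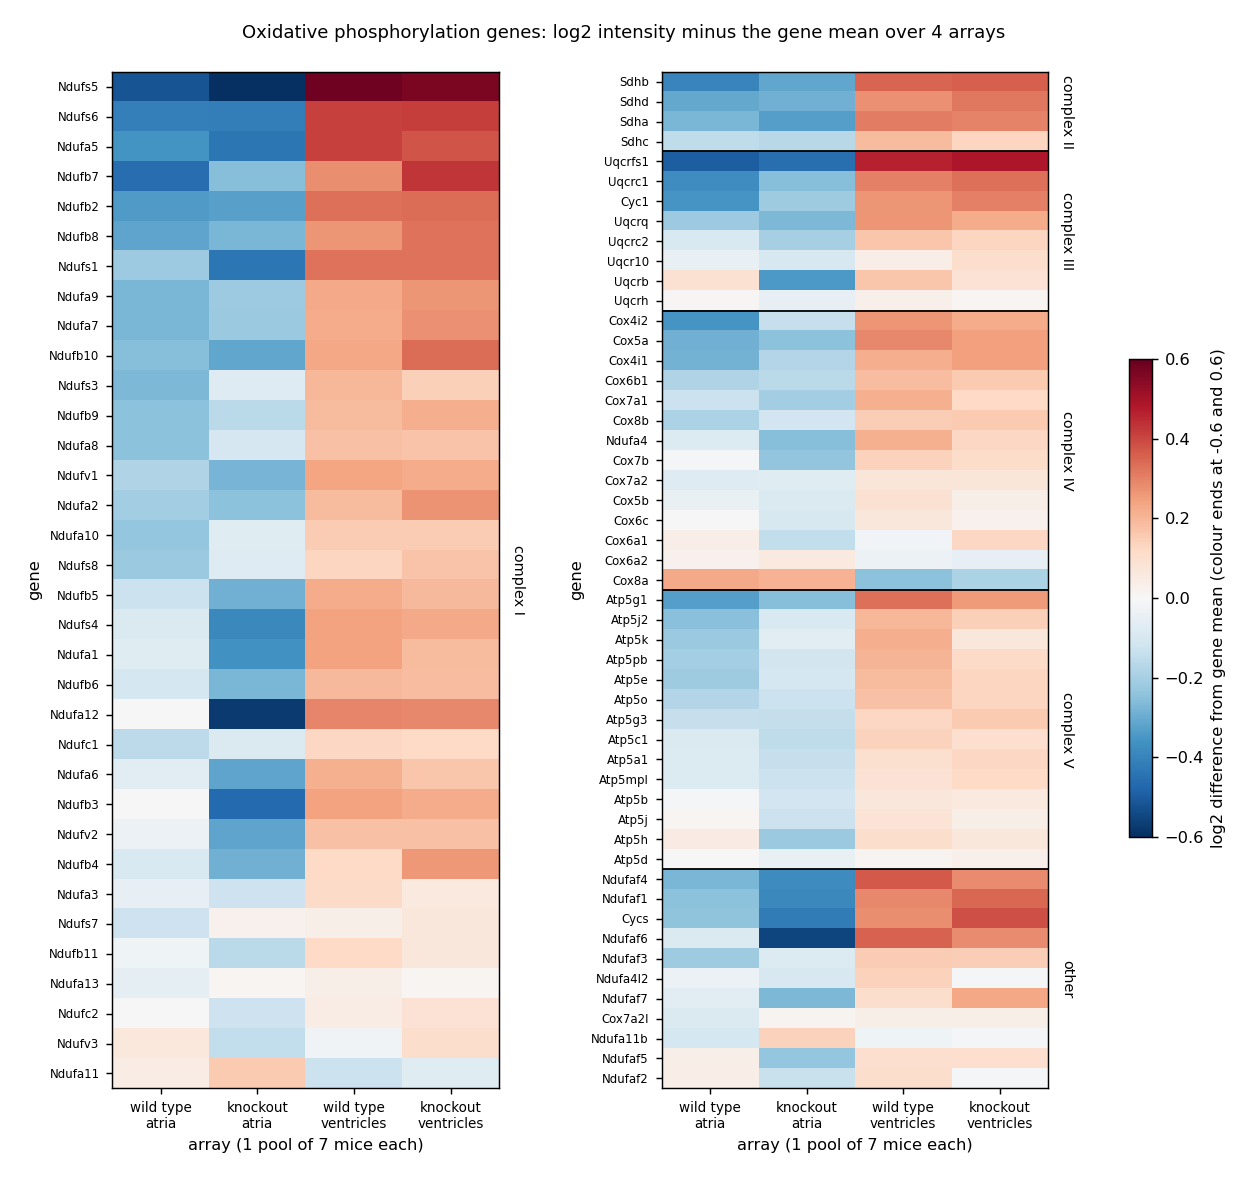
Log2 intensity of the 85 members that reached the floor, each minus its own mean over the 4 arrays, grouped by complex and ordered by the wild type chamber ratio; red is above and blue below the gene's mean. Most rows are blue on the atrial and red on the ventricular arrays, with Cox8a the clearest exception.

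The first comparison, of the 2 wild type pools, concerned how transcript levels differ between atria and ventricles. Oxidative phosphorylation genes were lower in atria across the whole pathway: 80 of 85 members had a negative log2 ratio (94.1%), where 51.5% of all 10034 genes above the floor did. The median over members was −0.34, against −0.01 over all genes. Differences were small per gene. Only Ndufs5 was at least 2-fold lower in atria, while 2.21% of all genes were. At least 1.5-fold, 12 of 85 members (14.1%) were lower and 0 higher, where the background was 7.82% lower and 8.44% higher.

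The order of the complexes by wild type chamber median was complex II (−0.58), III (−0.37), I (−0.35), V (−0.24) and IV (−0.22). The range within complex I, from −1.10 to 0.17, was wider than the distance between these medians. All 4 members of complex II, 8 of 8 of complex III and 14 of 14 of complex V were negative, as were 32 of 34 of complex I and 11 of 14 of complex IV.

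Complex I showed the largest single difference. Ndufs5, an accessory subunit at the intermembrane face, stood at 7.07 in wild type atria and 6.96 in knockout-labelled atria, against 8.18 and 8.16 in ventricles. Its chamber ratio was −1.10 in wild type (2.15-fold) and −1.20 on the knockout-labelled arrays (2.29-fold). Next were Ndufs6, which carries a zinc site, at −0.82 (8.86 in atria, 9.68 in ventricles) and Ndufa5 at −0.77 (9.02 and 9.79). The 6 nuclear core subunits measured, of 7 listed (the other was not analysed here), most of which hold the flavin or an iron-sulphur cluster, had a median of −0.39, with Ndufs1 lowest at −0.54 and Ndufs7 nearest to 0 at −0.16. The 28 accessory subunits had a median of −0.34. Against the trend, Ndufa11 was higher in atria by 0.17 and Ndufv3 by 0.08. The 7 assembly factors were all negative, with a median of −0.37 and Ndufaf4 lowest at −0.64.

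Complex II, which is also the succinate dehydrogenase of the citrate cycle, was lower in atria in all 4 subunits. Sdha, the flavoprotein, stood at 10.63 and 10.57 in wild type and knockout-labelled atria and at 11.21 and 11.20 in ventricles. Sdhb, the iron-sulphur subunit, stood at 10.04 and 10.13 in atria and at 10.79 and 10.80 in ventricles, a ratio of −0.75 in wild type. The membrane anchors Sdhc and Sdhd had ratios of −0.34 and −0.58. On the knockout-labelled arrays the 4 ratios were negative too, where 55.4% of all genes had a negative ratio.

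In complex III a single subunit stood apart. Uqcrfs1, the Rieske iron-sulphur protein, stood at 8.61 and 8.65 in wild type and knockout-labelled atria and at 9.56 and 9.59 in ventricles. Its wild type ratio was −0.96 (1.94-fold). The core protein gene Uqcrc1 followed at −0.68 and cytochrome c1, encoded by Cyc1, at −0.62 (10.64 in atria and 11.26 in ventricles). The small subunits Uqcrh (−0.02), Uqcrb (−0.08) and Uqcr10 (−0.08) lay near 0. Cycs, the gene of somatic cytochrome c, stood close to the floor, at 5.79 and 5.61 in atria and 6.31 and 6.42 in ventricles, with a ratio of −0.52.

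Complex V members ran from −0.66 to −0.02. The lowest ratio was that of Atp5g1, which encodes a form of the membrane rotor subunit c, at −0.66 (6.03 in atria and 6.69 in ventricles). These levels lay near the floor. Atp5j2 and Atp5k, small membrane subunits, followed at −0.45 and −0.44. The catalytic beta subunit gene Atp5b (12.13 and 12.21) had a ratio of −0.08 and the delta subunit gene Atp5d −0.02. The 5 members of the F1 part, which holds the catalytic subunits and the central stalk, had a median of −0.18. The 9 members of the membrane part and peripheral stalk had a median of −0.35. The inhibitor gene Atpif1, named outside the rule, was at −0.21.

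**Figure D2:**
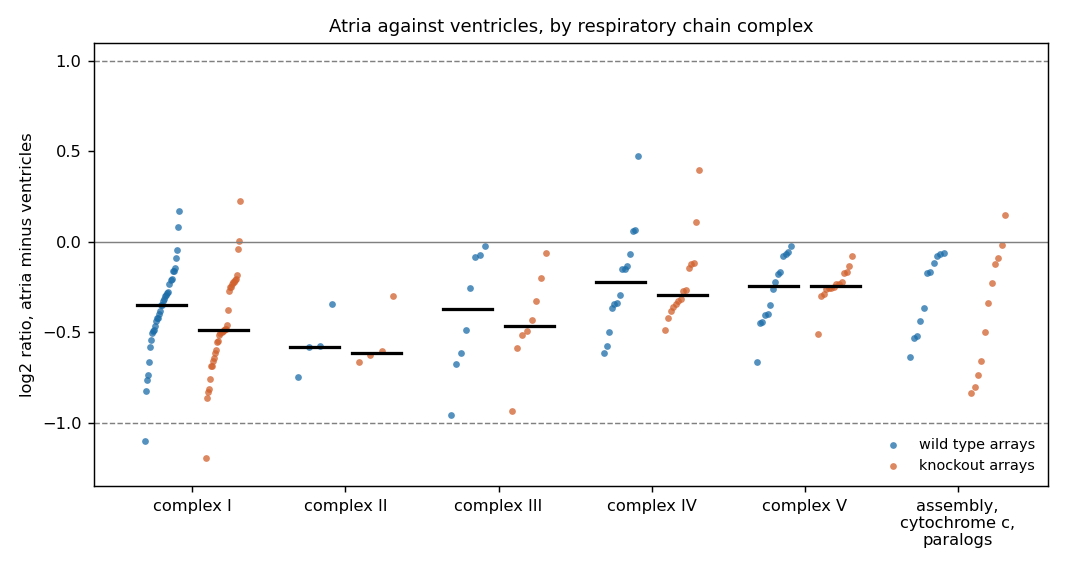
Log2 ratio of atria against ventricles for the 85 members that reached the floor, by complex, on the wild type (blue) and knockout-labelled (orange) arrays; each point is a gene, black lines are medians and dashed lines mark 2-fold. Complex II and complex III lie wholly below 0 in both genotypes, and Ndufs5 alone is past the lower dashed line.

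Complex IV held 3 of the 5 members with a positive wild type ratio, and its paired isoforms did not all move alike. Cox8a, the widely expressed form of subunit 8, stood at 10.45 and 10.43 in wild type and knockout-labelled atria and at 9.97 and 10.03 in ventricles. Its partner in heart and skeletal muscle, Cox8b, stood at 11.75 and 11.83 in atria and at 12.09 and 12.10 in ventricles. Cox8a was thus the member highest in atria, at 0.47 in wild type, while Cox8b was at −0.34. The ratio of the muscle form minus that of the wide form was −0.81 in wild type and −0.67 on the knockout-labelled arrays. Levels of different probe sets were not compared, because brightness also depends on the probes.

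The other pairs did not repeat this. Cox6a1, the wide form of subunit 6a, stood at 8.82 in wild type atria and 8.77 in wild type ventricles, and Cox6a2, the muscle form, at 11.33 and 11.27, so that both had a ratio of 0.06. Cox7a1, the muscle form of subunit 7a, was at −0.34 and Cox7a2, the wide form, at −0.15, a difference of −0.19 in the same direction as subunit 8 but smaller. Cox4i1 and its hypoxia-linked partner Cox4i2 were at −0.50 and −0.62. Cox5a, which has no isoform among the members, was second lowest in complex IV at −0.58 (9.88 in atria and 10.46 in ventricles). Ndufa4, once assigned to complex I and now counted in complex IV, was at −0.29 and its paralog Ndufa4l2 at −0.17. In complex V, Atp5g3 was at −0.26 against −0.66 for Atp5g1, a difference of 0.40, while Atp5g2 was not analysed here. Atp5g1 (6.03 to 6.69 over the arrays) and Ndufa4l2 (6.04 to 6.28) lay near the floor. The pairs of Cox6b and Cox7b held a member below the floor, so that their differences have no meaning.

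**Figure D3:**
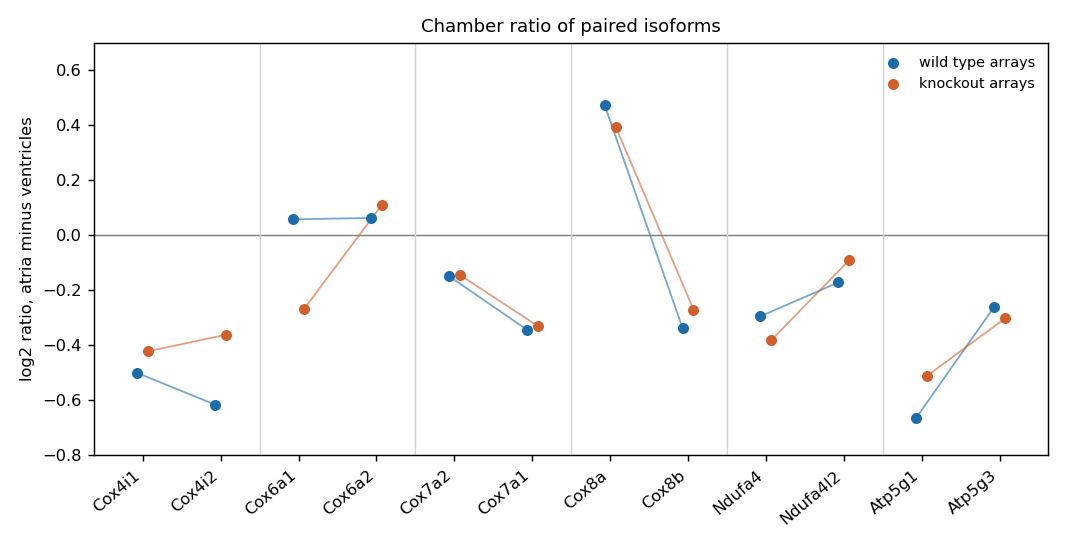
Log2 ratio of atria against ventricles for 6 pairs of isoforms or paralogs, on the wild type (blue) and knockout-labelled (orange) arrays; lines join the genes of a pair. Cox8a is above 0 and Cox8b below 0 in both genotypes, while the Cox6a pair differs by 0.00 in wild type and by 0.38 on the knockout-labelled arrays.

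Brightness moved with the chamber ratio. Across the 85 members, Spearman's correlation of mean level with the wild type ratio was 0.28, a description over genes that share the same arrays, against −0.08 over all genes. The 13 members between the floor and 8 had a median of −0.44, the 22 members from 8 to 10 one of −0.38, the 24 members from 10 to 11 one of −0.42, and the 26 members from 11 to 13 one of −0.17. Over all genes the medians of these bands were −0.00, −0.04, −0.14 and −0.13. In the top band the medians of members and all genes therefore lay close together, and 26 of its 97 genes were members. There 96.2% of members and 75.3% of all genes were negative. With each ratio centred on a lowess curve of ratio against level, the wild type median of all members was −0.26 and that of complex V −0.15, while complex II stayed at −0.51. Under lowess centring the small negative ratios of Atp5b, Atp5d, Atp5j, Atp5h, Cox6c, Uqcrb, Uqcrh and Ndufc2 turned positive. For these 8 genes the chamber direction is therefore not settled.

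**Figure D4:**
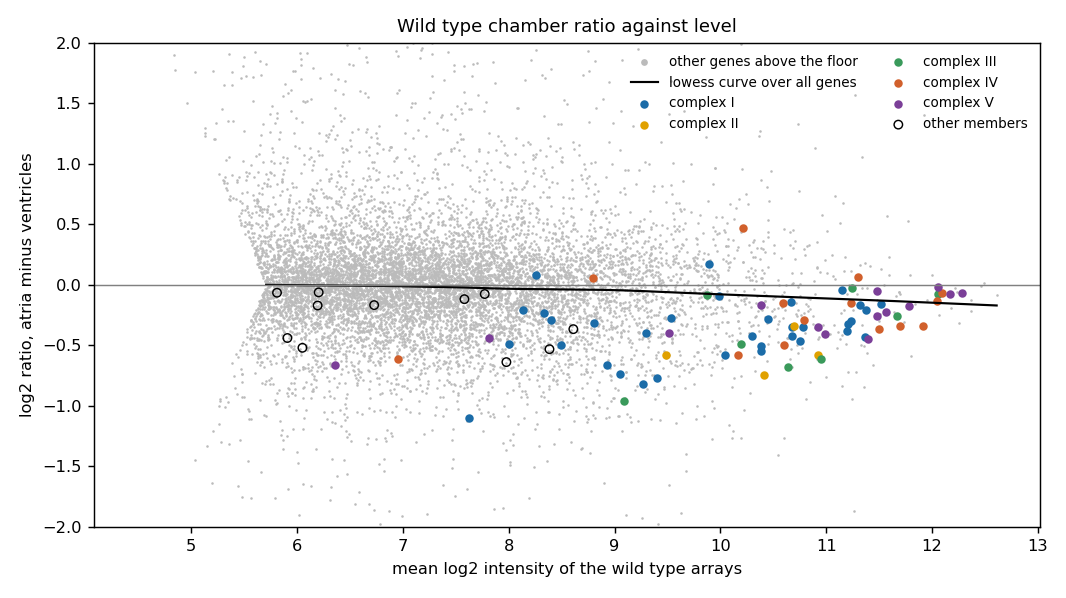
Wild type log2 ratio of atria against ventricles plotted against the mean log2 intensity of the 2 wild type arrays, for members coloured by complex and for other genes above the floor (grey; 120 of them lie outside the axis, which ends at 2 and −2). The black line is a lowess curve over all named genes; most members lie below it, and those at the right end lie near it.

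Other genes of the mitochondrion were set beside the members from lists. Of 33 assembly factors outside the rule, 31 were negative in wild type atria against ventricles, with a median of −0.46 and 0 past 2-fold. Lyrm7, a chaperone of the Rieske protein, was lowest at −0.82, and Cox10, an enzyme of haem a synthesis, was at −0.77. Of 13 regulators of mitochondrial genes 12 were negative, with a median of −0.47. Perm1, a muscle regulator of oxidative metabolism, was at least 2-fold lower at −1.39, and Nrf1 was at 0.24. Of 8 genes taken as markers of mitochondrial content 7 were negative, with a median of −0.41 and Hspd1, a matrix chaperone, lowest at −0.96.

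Cell type markers also differed between the chambers. The 6 fibroblast markers averaged 9.70 and 9.21 on the wild type and knockout-labelled atria arrays against 8.86 and 8.75 in ventricles, and 6 of 6 were higher in wild type atria, by a median of 0.82. The 5 epicardial markers averaged 7.32 and 7.41 in atria against 5.51 and 5.68. The 6 cardiomyocyte markers were all lower in atria, with a median ratio of −0.07. Other lists were split in wild type. Endothelial markers ran from −0.70 for Kdr to 0.81 for Emcn, and smooth muscle markers from −1.28 for Acta2 to 2.47 for Cnn1. The 4 macrophage markers had a median of 0.06. Of 5 brown adipocyte markers 2 reached the floor in ventricles and 1 in atria, Prdm16 being at −1.67 and Cidea at −0.77 in wild type. Their defining gene Ucp1 was below the floor on all 4 arrays (4.34 to 4.52). In pooled tissue, fewer cells of a type and less RNA per cell cannot be told apart, and the part of cell composition in the chamber ratios was not tested.

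Promoter sequence was read to show what lies upstream of members at the ends of the chamber range and of complex IV isoform genes. RefSeq windows of assembly GRCm38.p6 matched 70 of the 88 members, with 75 windows, and 4 short motifs were searched on both strands of the 250 bases before each start. These were NRF1 (GCGCA and GCGC separated by any 1 base), GABP (CCGGAAG), the core element of oestrogen-related receptors (AAGGTCA) and the MEF2 consensus. The NRF1 letters were in 18.7% of member windows and 3.74% of all 32851 windows, the GABP letters in 14.7% and 6.91%, and the receptor element in 5.33% and 4.08%. Among windows of genes named on the array the shares were 5.65%, 9.43% and 3.42%. The MEF2 consensus was in 0 of 75 member windows, in 2.92% of all windows and in 2.4% of windows of genes named on the array. A share this low gives few matches in 75 windows, so 0 is close to it. Member windows were also richer in G and C, with a median of 57.2% against 52.4%.

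The 7 windows below are those of Ndufs5, Uqcrfs1 and Ndufs6, the 3 members lowest in wild type atria against ventricles, of Ndufa11, the highest of complex I, and of 3 complex IV isoform genes, Cox6a1 among them with a ratio near 0. They are written 5′ to 3′ and end at the base before the start site. Capitals mark motif matches: in Ndufs5 the receptor element, on the opposite strand, and then NRF1, in Ndufs6 NRF1 on the opposite strand, in Ndufa11 NRF1, and in Cox6a1 NRF1 at 2 places and then GABP on the opposite strand. Uqcrfs1, Cox8a and Cox8b held no match to any of the 4 motifs. Cox6a2 had no window in the table.

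Ndufs5 promoter (chr4:123718187-123718436, minus strand): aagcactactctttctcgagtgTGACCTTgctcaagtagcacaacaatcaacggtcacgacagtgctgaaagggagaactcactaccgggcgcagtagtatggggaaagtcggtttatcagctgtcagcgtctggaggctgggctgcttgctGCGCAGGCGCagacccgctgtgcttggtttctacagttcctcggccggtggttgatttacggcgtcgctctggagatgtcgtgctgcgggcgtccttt
Uqcrfs1 promoter (chr13:30545317-30545566, minus strand): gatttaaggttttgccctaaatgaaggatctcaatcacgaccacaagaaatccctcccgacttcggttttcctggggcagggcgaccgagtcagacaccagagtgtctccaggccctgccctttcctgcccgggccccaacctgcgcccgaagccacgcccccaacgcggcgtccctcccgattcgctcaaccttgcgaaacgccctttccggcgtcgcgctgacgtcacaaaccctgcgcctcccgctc
Ndufs6 promoter (chr13:73328483-73328732, minus strand): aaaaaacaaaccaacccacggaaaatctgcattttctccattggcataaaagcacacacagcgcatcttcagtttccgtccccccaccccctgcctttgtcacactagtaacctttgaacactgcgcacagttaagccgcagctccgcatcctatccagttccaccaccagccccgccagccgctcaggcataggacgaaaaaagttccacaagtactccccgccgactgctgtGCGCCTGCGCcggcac
Ndufa11 promoter (chr17:56717512-56717761, plus strand): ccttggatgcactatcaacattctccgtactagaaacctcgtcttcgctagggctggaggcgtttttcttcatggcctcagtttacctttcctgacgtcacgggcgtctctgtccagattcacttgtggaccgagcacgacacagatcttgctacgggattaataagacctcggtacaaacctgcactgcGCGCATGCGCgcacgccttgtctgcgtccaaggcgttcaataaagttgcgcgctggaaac
Cox6a1 promoter (chr5:115348959-115349208, minus strand): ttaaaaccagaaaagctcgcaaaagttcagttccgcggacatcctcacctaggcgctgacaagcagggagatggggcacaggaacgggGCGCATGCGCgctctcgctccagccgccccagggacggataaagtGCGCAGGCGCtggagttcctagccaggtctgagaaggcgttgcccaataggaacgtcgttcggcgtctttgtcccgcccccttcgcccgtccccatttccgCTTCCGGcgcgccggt
Cox8a promoter (chr19:7217617-7217866, minus strand): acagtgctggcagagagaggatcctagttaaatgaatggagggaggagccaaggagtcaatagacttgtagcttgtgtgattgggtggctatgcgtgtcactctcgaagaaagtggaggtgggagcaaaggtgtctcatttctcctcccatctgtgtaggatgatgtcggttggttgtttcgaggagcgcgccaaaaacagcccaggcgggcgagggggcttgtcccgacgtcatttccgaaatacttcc
Cox8b promoter (chr7:140900447-140900696, minus strand): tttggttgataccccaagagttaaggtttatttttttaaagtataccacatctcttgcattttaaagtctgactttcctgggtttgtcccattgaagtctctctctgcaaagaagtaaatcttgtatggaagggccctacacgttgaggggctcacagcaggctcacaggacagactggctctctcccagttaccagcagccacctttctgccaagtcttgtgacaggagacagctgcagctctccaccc

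NRF1 letters thus lay before the lowest gene in atria, Ndufs5, and before the highest of complex I, Ndufa11, but not before Uqcrfs1, the second lowest. In Ndufs5 they were 98 to 89 bases before the start, in Ndufs6 16 to 7 and in Ndufa11 60 to 51. The 13 genes with an NRF1 match had a wild type chamber median of −0.44 (−1.10 to 0.17) and the 55 others above the floor −0.31 (−0.96 to 0.47), which overlap. A match describes letters in the window and nothing about binding.

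The knockout-labelled arrays repeated the chamber pattern. In knockout atria against knockout ventricles, 80 of 85 members were again negative, against 55.4% of all genes, with a median of −0.33. Ndufs5 alone was at least 2-fold lower, where 2.85% of all genes were. At least 1.5-fold lower were 20 members (23.5%), against a background of 10.1%, and 0 were at least 1.5-fold higher, against 7.8%. Cox5a was lowest in complex IV at −0.49, Uqcrc2 was at −0.33 in complex III, and Ndufa13 was at 0.00 in complex I. The 20 members included Ndufa12 (−0.87), Cycs (−0.80) and the core subunit gene Ndufs1 (−0.76), none of which passed that fold in wild type. The complex medians were −0.62 for complex II, −0.49 for I, −0.46 for III, −0.29 for IV and −0.24 for V. Under lowess centring the member median was −0.15 and that of complex V −0.08, so these sizes depended on the scaling. Some signs did too. Of all 88 members, those below the floor among them, 11 changed sign under lowess centring and 7 under quantile normalization. The chamber direction of these genes is not settled on the knockout-labelled arrays. The 2 chamber comparisons share no array, but each shares arrays with both genotype comparisons. Of the 33 other assembly factors 31 were negative, with a median of −0.44 and Sdhaf4, an assembly factor of complex II, lowest at −1.07. All 13 regulators were negative with a median of −0.40, Perm1 at −1.33 and Tfam at −1.09 being past 2-fold. All 8 content markers were negative with a median of −0.53, and Hspd1 was past 2-fold at −1.20.

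Knockout-labelled against wild type atria asked how the pathway differs in mice labelled as lacking MEF2A. No member was at least 1.5-fold higher or lower, where 3.03% of all 10050 genes were. By mean level, 6763 of these genes but only 12 members lay between the floor and 8. The median over 84 members was −0.05, against −0.03 over all genes, and 49 members (58.3%) were negative, against 56.9%. Quantile normalization turned the member median to 0.02. By complex the medians were −0.06 for I, 0.00 for II, −0.05 for III, −0.01 for IV and −0.02 for V. Of the 6 complex I assembly factors above the floor 5 were negative, with a median of −0.16.

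A few members stood below the rest in knockout-labelled atria. Ndufa12, an accessory subunit of complex I, read 8.25 in wild type and 7.68 in knockout-labelled atria, and 8.55 and 8.54 in the ventricles. It was lowest in knockout-labelled atria and nearly equal between the ventricular arrays, with a ratio of −0.57 (1.49-fold) in atria and −0.00 in ventricles. That is just short of 1.5-fold. Centring each array on its median took it to −0.61, past the fold. Quantile normalization and lowess centring each took it to −0.52, further from the fold. Ndufb3, of the membrane arm, read 8.21 and 7.75 in atria and 8.45 and 8.43 in ventricles, a ratio of −0.47 in atria. Uqcrb, a ubiquinone-binding subunit of complex III, read 12.02 and 11.58 in atria and 12.09 and 12.01 in ventricles, a ratio of −0.44 in atria.

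A smaller fold, a log2 ratio of 0.32 in size, was passed on the lower side by these 3 members only (3.57% of the 84), where 10.4% of all genes passed it. On the higher side 0 members passed it, where 5.63% of all genes did. Ndufs4, an accessory subunit of complex I, came next at −0.30, and Atp5h, of the peripheral stalk of the ATP synthase, was lowest in complex V at −0.27. Cox7b was lowest in complex IV at −0.23, and Uqcrc2, a core protein gene, was second lowest in complex III at −0.11. On the other side Ndufa11b was highest at 0.24, Ndufb7 was at 0.20, Ndufs3 at 0.19, Ndufa10 and Atp5j2 at 0.16, Atp5e at 0.11, Cyc1 at 0.14 and Cox4i2 at 0.21. The 4 genes of complex II lay between −0.06 and 0.09. Cycs was at −0.18.

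In ventricles the members hardly differed between the arrays. None of 85 was at least 1.5-fold higher or lower, where 1.2% of all 9712 genes were. By mean level, 6665 of these genes but only 13 members lay between the floor and 8. No member reached the smaller fold, which 2.51% of all genes passed on the higher and 2.75% on the lower side. The median was −0.01 over members and 0.00 over all genes. The extremes were Atp5k at −0.15 and Ndufb7 at 0.15. In complex I, Ndufb4 was at 0.14, and Ndufa1 and Ndufa3 at −0.05. In complex III, Uqcrq was at −0.04 and Uqcrc2 at −0.03, and in complex IV Cox5b was at −0.05. In complex V, Atp5pb was at −0.09, and Atp5a1 and Atp5mpl at 0.03. By complex the medians ran from −0.04 for V to 0.00 for III, and the 6 measured core subunits of complex I lay between −0.06 and 0.04. Sdha read 11.21 and 11.20, and Atp5b 12.21 and 12.20, on the wild type and knockout-labelled arrays.

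**Figure D5:**
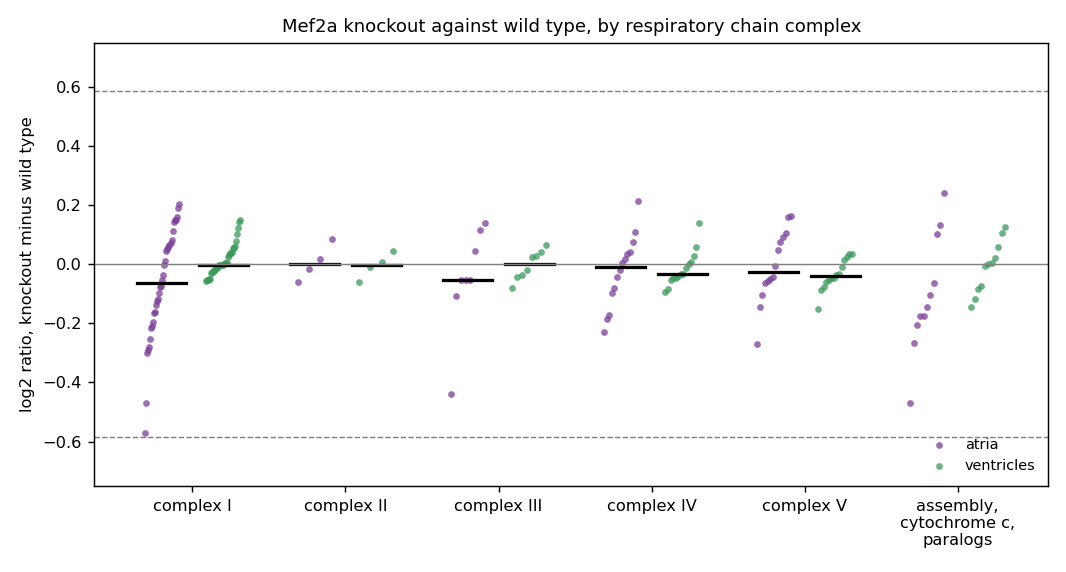
Log2 ratio of knockout-labelled against wild type arrays for the 85 members that reached the floor, by complex, in atria (purple) and ventricles (green); each point is a gene, black lines are medians over the genes drawn and dashed lines mark 1.5-fold. Ventricular points lie between −0.15 and 0.15, atrial points reach −0.57, and Ndufaf6, drawn with the assembly factors, lies below the floor on both atrial arrays.

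The genotype ratios were more scattered in atria than in ventricles. Over the 84 members above the floor in both comparisons, the standard deviation across genes was 0.16 in atria and 0.06 in ventricles, and for all 9436 genes it was 0.25 and 0.17. In both chambers members were thus less scattered than genes at large, but members were also brighter than most genes. In the level band from 11 to 13, all 97 genes lay between −0.44 and 0.23 in atria. In ventricles they lay between −0.15 and 0.23. Scatter was not compared at equal level. The atrial ratio was the larger in size in 69 of 84 members and in 6208 of 9436 genes. Atrial and ventricular ratios had the same sign in 57.1% of members and 57.7% of all genes. The ratio in atria minus that in ventricles was lowest for Ndufa12 (−0.57), Ndufb3 (−0.45) and Uqcrb (−0.36) and highest for Atp5k (0.31), Cox4i2 (0.25) and Ndufs3 (0.25). Its median was −0.02 over members and −0.04 over all genes, and the difference between chambers had no test.

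Isoform pairs showed no ratio past the fold with genotype. Cox8a had ratios of −0.02 (atria) and 0.06 (ventricles), and Cox8b of 0.08 and 0.01. Cox7a1 was at −0.08 and −0.09 and Cox7a2 at 0.00 and −0.00. Cox6a1 went from 8.82 to 8.64 in atria and from 8.77 to 8.91 in ventricles, so its signs were opposite (−0.19 and 0.14), while Cox6a2 was at 0.04 and −0.01. The pair of Cox6a thus differed by 0.22 in atria and −0.15 in ventricles.

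Among related genes in knockout-labelled atria, Tfam, which packages mitochondrial DNA, was the listed regulator past 1.5-fold, at −0.60. It read 6.57 in wild type and 5.97 in knockout-labelled atria. Esrrb, a receptor of the ERR family, was at 0.52 (5.88 and 6.39). Both genes lay near the floor. The 13 regulators had a median of −0.05. None of 33 assembly factors outside the rule passed 1.5-fold in either chamber, with Cox16 at −0.35 in atria and Sco1 at 0.24 in ventricles the largest in size. Of these 33, 23 were negative in atria, with a median of −0.04, where 56.9% of all genes were negative. Of 8 mitochondrial content markers, 7 were negative in atria, with a median of −0.09. Vdac3, an outer membrane channel gene, was lowest at −0.50. In ventricles the medians were 0.00 for assembly factors, 0.01 for regulators and 0.03 for content markers, with 0 past 1.5-fold. Markers of other cell types also differed with genotype. Fibroblast markers were lower in knockout-labelled atria in 6 of 6 genes, with a median of −0.47, and in ventricles in 6 of 6 with a median of −0.10. Lum was at −0.84, Pdgfra at −0.63 and Dpt at −0.62 in atria. Macrophage markers were lower in ventricles in 4 of 4 genes, with a median of −0.17, and had a median of −0.02 in atria. The 5 endothelial markers had medians of 0.10 in atria, where 3 were higher and 2 lower, and 0.04 in ventricles, where 5 were higher. The 8 genes listed as skeletal muscle markers did not move together, and which cells expressed them was not tested. The ratios in atria and ventricles were −3.77 and −3.62 for Myl1, −0.58 and −1.82 for Acta1, and −0.01 and 0.03 for Ckm. Tnnt3 was at −0.66 and Tnni2 at −0.59 in atria. Ckm was bright on all arrays (11.10 to 11.80), while Myh1, Myh2 and Myh4 were below the floor on all of them. Of smooth muscle markers Cnn1 was at −1.29 and Acta2 at 0.61 in atria. The white adipocyte marker Retn, just above the floor in wild type atria only, was at −1.07 there. The 2 brown adipocyte markers above the floor in ventricles went opposite ways, Cidea at 0.62 and Prdm16 at −0.17. The part of these markers' cells in the member ratios was not tested. The 6 cardiomyocyte markers lay between −0.20 and 0.08 in atria and between −0.13 and 0.03 in ventricles.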

How the data were processed

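RNA of 4 pools of 7 mice was read on 1 array each. The authors deposited a log2 intensity for each probe set, and the submitters' processing notes name RMA and the affy package, with versions, genome build and probe set version not given in the sources used here. Of 21212 probe sets 18786 had 1 symbol in the platform annotation and 2426 had several or none. Symbols were updated through RefSeq (GRCm38.p6), and 1 probe set was kept for each of 18781 genes. Members and lists were chosen with earlier results of these data known. No test was run, because each group held 1 array. A gene was called at 1.5-fold for genotype or 2-fold for chamber, with a smaller fold of each as an alternative. The rule named members past the fold, the 3 highest and 3 lowest of each complex, complex II, Cyc1, Cycs, the isoform pairs, Mef2a, and from other lists genes past the fold or the 2 largest. Marker genes past the fold are given in part, the rest by list, and not every list is given for every comparison. Other genes were named after their values were seen. Alternatives were median centring, quantile normalization, lowess centring (span 0.3), other floors and other member sets. The counting was tested on simulated data. Python 3.11.15, pandas 2.3.3 and statsmodels 0.14.6 were used. Related genes and processed pseudogenes may share probes.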

Additional observations from a re-analysis of the deposited data

How the results depend on the processing

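Median centring, quantile normalization and lowess centring left the chamber median of members negative in both genotypes, from −0.37 to −0.26 in wild type and from −0.42 to −0.15 on the knockout-labelled arrays. The member median of the atrial genotype comparison ran from −0.08 to 0.02 and that of ventricles from −0.02 to 0.02, so neither has a settled sign. Median centring gave 1 member past 1.5-fold in the atrial genotype comparison (Ndufa12) and 2 members past 2-fold lower in the knockout chamber comparison (Ndufs5 and Uqcrfs1). Quantile normalization and lowess centring gave 0 past 1.5-fold in the atrial genotype comparison. The smaller folds gave 3 lower members in the atrial genotype comparison (3.57%, against 10.4% of all genes). They gave 12 in the wild type chamber comparison (14.1%, against 7.82%) and 20 in the knockout chamber comparison (23.5%, against 10.1%). Adding, after the data were seen, 4 probe sets outside the annotation whose gene numbers match the rule gave 1 and 2 lower members in the atrial genotype and knockout chamber comparisons. Shares over all genes were computed for the deposited scaling only. There 3.03% were at least 1.5-fold higher or lower in the atrial genotype comparison. In the knockout chamber comparison 2.85% were at least 2-fold lower.

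In the knockout chamber comparison the member median was −0.22 under quantile normalization and −0.15 under lowess centring, where it was −0.33 as deposited. Under these 2 settings complex I was at −0.37 and −0.34, and complex II at −0.49 and −0.47. Lowess centring gave −0.30 for complex III, −0.14 for complex IV and −0.076 for complex V. Of the isoform differences in that comparison, quantile normalization gave −0.042 for Cox4i2 minus Cox4i1 and −0.31 for Cox7a1 minus Cox7a2. Quantile normalization and lowess centring gave 0.13 and 0.069 for Cox6b2 minus Cox6b1, 0.18 and 0.17 for Cox7b2 minus Cox7b, 0.091 and 0.10 for Ndufa4l2 minus Ndufa4, and 0.34 and 0.38 for Atp5g3 minus Atp5g1. In the atrial genotype comparison they gave 0.13 and 0.10 for the Cox6b pair, and 0.24 and 0.24 for the Cox7b pair. Cox6b2 and Cox7b2 lay below the floor, so the values of these pairs are not measured differences. The cause was not tested. The difference between Cox8b and Cox8a stayed between −0.84 and −0.77 in wild type. Other floors, symbols as annotated, structural subunits alone and Ndufa4 in complex I moved no count past 1.5 times and no median by 0.1. No paired analysis was possible because each group held 1 array.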

Other observations

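Of the 4 probe sets outside the platform annotation whose gene number RefSeq assigns to a symbol matching the rule, 3 are listed there as pseudogenes and 1 as a protein-coding gene. They were left unnamed. In atria, a pseudogene probe set read 9.90 in wild type and 9.25 in knockout-labelled mice, a ratio of −0.65. In ventricles it read 10.35 and 10.43, a ratio of 0.08. The protein-coding one had a wild type chamber ratio of −0.47 and genotype ratios of 0.02 in atria and 0.04 in ventricles.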
